A study of Caenorhabditis elegans with 2 samples.

Results

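The genes sls-2.1 to sls-2.10 of Caenorhabditis elegans encode SL2 spliced leader RNAs, and they were examined here for binding of a tagged C34B4.2 protein. All 10 are annotated in Ensembl release 115 on the WBcel235 (ce11) assembly, on chromosomes I, II, III and IV, among 18 annotated sls-2 genes and 46890 nuclear genes in all. A gene counted as occupied by a candidate where the summit of a deposited peak, its highest point, lay within 200 bp of the gene. The 10 genes were taken by name, but the set was chosen by the peak signals of these same lists, in which some of them stood high. The signals, ranks and distances below are therefore a description and carry no test. The libraries came from whole L1 larvae of mixed sex of strain OP552, genotype unc-119(tm4063) III; wgIs552, sampled 6 h after synchronization by starvation that followed bleaching. This transgenic line stably carries an inserted C34B4.2 with GFP and FLAG at its C terminus. unc-119 serves as a transformation marker in such lines. The 2 biological replicates form a single group, and no other group was studied. Chromatin was sonicated, and per the descriptions an antibody against GFP was used, whereas the antibody label names C34B4.2. A control library stood behind the candidate lists, and its strain is not given in the sources used here. The limits of the model are the tagged transgene, whose promoter is not stated, and the mixture of all cell types of the larva.

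SL2 RNA donates a short leader to messages by trans-splicing. Many nematode genes lie in operons that are transcribed as 1 precursor, and SL2 is joined to the messages of downstream genes, while the other leader, SL1, is joined mostly to the first gene of an operon or to messages of genes outside operons. An SL RNA gene is short and is transcribed by RNA polymerase II from its own promoter, which holds a proximal sequence element bound by the SNAPc complex. The RNA carries the leader at its 5′ end and an Sm-binding word further along, which Sm proteins occupy to form the SL2 particle, and its cap is trimethylated. The cleavage stimulation factor CstF links this particle to 3′ end formation of the upstream message. 

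The 80 bases before the start of 6 of the genes are shown because this is the stretch in which most of the strong summits lay. The first 4 genes printed had their strongest pooled summit in it, and sls-2.5 and sls-2.10, which had weaker ones elsewhere, are shown for contrast. The sequences were read 5′ to 3′ along the gene's strand from the WBcel235 assembly at chrII:5844785-5844864 on the plus strand for sls-2.1, chrII:5543518-5543597 on the plus strand for sls-2.2, chrII:5544274-5544353 on the minus strand for sls-2.3, chrIII:12250385-12250464 on the plus strand for sls-2.8, chrIII:7140554-7140633 on the minus strand for sls-2.5 and chrIV:9130830-9130909 on the minus strand for sls-2.10. Capitals mark bases that match the family's commonest base at positions where at least 14 of the 18 sls-2 genes carry the same one, counted back from -1 just before the gene start.
sls-2.1: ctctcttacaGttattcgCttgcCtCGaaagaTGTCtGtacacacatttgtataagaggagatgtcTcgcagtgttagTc
sls-2.2: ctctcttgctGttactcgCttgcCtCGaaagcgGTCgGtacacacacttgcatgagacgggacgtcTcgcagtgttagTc
sls-2.3: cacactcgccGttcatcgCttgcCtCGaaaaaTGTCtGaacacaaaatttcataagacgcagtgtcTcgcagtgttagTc
sls-2.8: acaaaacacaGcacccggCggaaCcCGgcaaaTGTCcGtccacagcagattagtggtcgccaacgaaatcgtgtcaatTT
sls-2.5: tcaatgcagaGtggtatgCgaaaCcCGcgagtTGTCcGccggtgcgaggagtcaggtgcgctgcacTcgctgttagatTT
sls-2.10: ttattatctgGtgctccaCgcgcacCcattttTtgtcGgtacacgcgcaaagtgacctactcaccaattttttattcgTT

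There were 10 such positions between -70 and -43, and a further 3 at -14, -2 and -1. The longest run of neighbouring shared positions was TGTC at -48 to -45, on the gene's strand. All 10 positions of the group between -70 and -43 matched in sls-2.1, sls-2.3, sls-2.4, sls-2.5 and sls-2.8. sls-2.2 matched at 9, sls-2.7 at 8, sls-2.9 at 7, sls-2.10 at 5 and sls-2.6 at 3. In sls-2.10 the 4 bases TGTC begin at -47, 1 base nearer the start, so a comparison without gaps misses them. At least 8 of these positions matched in 7 of the 10 genes, and in 14 of all 18 sls-2 genes. The share was 6.06% of the 99 snRNA genes without spliced leaders and 0.0100% of 19973 protein-coding genes. The positions were chosen from these same 18 sls-2 genes, so the high counts there follow largely from the choice. Nothing is read from their difference to the other genes.

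TGTC by itself occurred more widely than the spaced positions. It began between -60 and -35 on the gene's strand in 7 of the 10 genes, not in sls-2.2, sls-2.6 or sls-2.7. The same held for 15 of the 18 sls-2 genes, 65.7% of the other snRNA genes and 7.98% of protein-coding gene starts. The 4 genes sls-2.1 to sls-2.4 share one further stretch at the same distance, TCGCTTGCCTCGAAA at -65 to -51, which overlaps the shared positions. Its first 10 bases, TCGCTTGCCT, were searched on both strands in the 150 bp before gene starts. They were found in those 4 genes, in 0 of the 8 other sls-2 genes, 0 of the 12 sls-1 genes and 0 of the 99 other snRNA genes. Among protein-coding genes 1 of 19973 windows held them, or 0.00501%. Both TGTC and this word were chosen from the sls-2 genes in which they were then counted, so those counts are no test. These matches are a description of letters and do not mark a binding site.

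The RNAs of 4 genes are shown because their leaders differ, read from the same assembly at chrII:5844865-5844974 on the plus strand for sls-2.1, chrIII:7140447-7140553 on the minus strand for sls-2.5, chrIII:12250465-12250575 on the plus strand for sls-2.8 and chrIV:9130721-9130829 on the minus strand for sls-2.10. Capitals mark the leader, taken from the annotated start to the bases AG before the first GT that follows an AG, and the Sm-type word TTTTGG.
sls-2.1: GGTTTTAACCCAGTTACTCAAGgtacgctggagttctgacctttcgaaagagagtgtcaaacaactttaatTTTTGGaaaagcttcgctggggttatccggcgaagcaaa
sls-2.5: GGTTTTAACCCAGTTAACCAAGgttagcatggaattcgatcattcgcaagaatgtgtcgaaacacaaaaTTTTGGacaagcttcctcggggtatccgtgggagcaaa
sls-2.8: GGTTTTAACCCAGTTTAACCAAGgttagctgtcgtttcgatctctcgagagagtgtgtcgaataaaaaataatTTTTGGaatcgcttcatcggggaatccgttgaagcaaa
sls-2.10: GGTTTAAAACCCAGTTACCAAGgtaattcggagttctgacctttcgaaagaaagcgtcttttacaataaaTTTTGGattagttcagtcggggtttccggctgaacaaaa

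The 10 genes held 5 distinct leaders, and all 18 sls-2 genes held 11. Every one of the 10 leaders began with GGTTT, and TTTTGG was present in all 10 RNAs and in 17 of the 18. The leader of sls-2.1, 22 nt long, is also that of sls-2.2, sls-2.3 and sls-2.4. The leader of sls-2.5, also 22 nt, is that of sls-2.6 and sls-2.7. sls-2.8 alone had a leader of 23 nt among the 10, and sls-2.9 one of 21 nt. The 22 nt leader of sls-2.10 recurs in sls-2.11, outside the 10.

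The genes sls-2.1 to sls-2.4 were also the most alike in sequence. Their RNAs were 90.9% to 97.3% identical over 6 pairs (median 94.1%), and the 80 bp before their starts 66.2% to 85.0% (median 73.1%). Over the other 39 pairs of the 10 genes the RNAs were 69.3% to 87.7% identical (median 75.0%), and the upstream bases 17.5% to 53.8% (median 35.0%). The best pooled candidates of the 4 genes that share the first leader had ranks 35, 51, 92 and 317. Of the 3 genes that share the second, only sls-2.5 had a candidate, at rank 14771.

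Each deposited list gives a signal per peak, on the authors' own scale, with no read depth behind it. The pooled list held 30000 candidate and background regions with signals of 39.5 to 868 (median 49.6), and rank 1 is its strongest. The list thresholded by the irreproducible discovery rate (IDR), which keeps peaks whose ranks repeat between replicates, held the 267 strongest of these, from 112 to 868 (median 153). The lists of replicate 1 and replicate 2 held 30000 regions each, with medians of 31.1 and 25.4. A pooled signal is on a larger scale than a replicate's, so values are compared within a list.

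Of the 10 genes, sls-2.1, sls-2.2, sls-2.4 and sls-2.8 had a thresholded summit within 200 bp, 4 of 10 or 40.0%. The background was 0.569% of all nuclear genes and 4.04% of the 99 snRNA genes without spliced leaders. A candidate of the pooled list lay at 8 of the 10, against 33.4% of all nuclear genes and 24.2% of the other snRNA genes. A candidate in the lists of both replicates lay at 6 of the 10, against 21.6% of all nuclear genes. Because the set was chosen from these lists, nothing is read from the difference to the background. The remaining 4 genes were sls-2.5 and sls-2.10, with a candidate in replicate 1 and the pool alone, and sls-2.6 and sls-2.7, with none in any list.

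**Figure D1:**
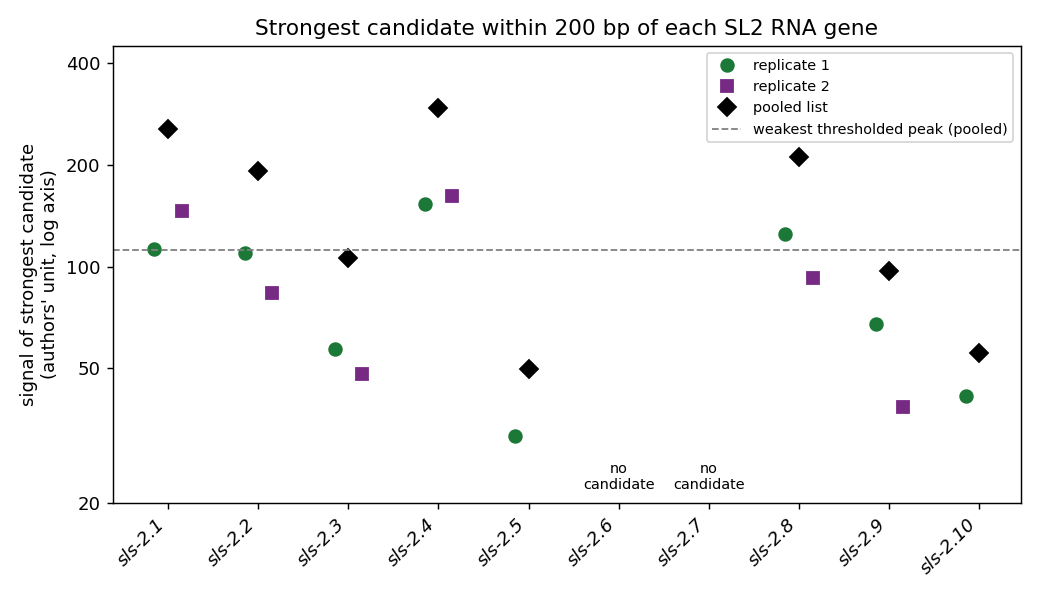
Signal of the strongest candidate within 200 bp of each SL2 RNA gene (authors' unit, log axis) in replicate 1 (circles), replicate 2 (squares) and the pooled list (diamonds). The dashed line is the weakest thresholded peak, at a pooled signal of 112; the pooled signals of sls-2.1, sls-2.2, sls-2.4 and sls-2.8 lie above it, from 192 to 294.

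The gene sls-2.4 (chromosome I, 4172206 to 4172315, plus strand) had the highest pooled signal of the 10, 294 at rank 35, with the summit at -57 bp from the gene start. A second thresholded summit, 237 at rank 58, lay at +148 bp, past the gene's end. The peak at -57 bp was 147 bp wide, against 370 bp for the other, and the peaks overlap. Replicate 1 had 1 candidate, 153 at rank 32, with the summit at +150 bp. Replicate 2 had 162 at rank 29 at -57 bp, and 83.4 at rank 132 at +184 bp. The replicates were alike in the signal of the strongest candidate but placed it on opposite sides of the gene.

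The gene sls-2.1 (chromosome II, 5844865 to 5844974, plus strand) followed, with a pooled signal of 256 at rank 51 and the summit at -37 bp. Replicate 1 had 113 at rank 65 at the same base, and replicate 2 had 146 at rank 39 at -54 bp. A weaker candidate lay past the gene's end, at +163 bp with 51.6 in the pool and at +148 bp with 59.2 in replicate 2. The upstream summit was the only one in replicate 1 and the stronger one in replicate 2, and in both it stood within the 80 bp printed above.

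The gene sls-2.8 (chromosome III, 12250465 to 12250575, plus strand), with the 23 nt leader, had a pooled signal of 211 at rank 75 at -55 bp. Replicate 1 gave 125 at rank 54 at -59 bp, and replicate 2 gave 92.6 at rank 101 at -33 bp. The pooled summit stood at one of the shared positions, but neither replicate's summit did. The signal of replicate 1 was higher than that of replicate 2. A second candidate lay at +161 bp in the pool (84.3, rank 931) and in replicate 1 (41.8), and at +187 bp in replicate 2 (41.1).

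The gene sls-2.2 (chromosome II, 5543598 to 5543707, plus strand) had 192 at rank 92 at -19 bp. Replicate 1 gave 110 at rank 69 at -16 bp, and replicate 2 gave 83.5 at rank 131 at -45 bp. Here too a second candidate lay beyond the gene, at +185 bp with 101 at rank 376 in the pool. It had 65.8 at the same base in replicate 1 and 40.9 at +163 bp in replicate 2. All 4 genes with a thresholded summit thus had pooled candidates on both sides of the gene, with the stronger one upstream. At each of these genes the upstream and downstream pooled peaks overlap, so they need not be separate sites.

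The genes sls-2.3 and sls-2.9 had candidates in both replicates but none in the thresholded list. sls-2.3 (chromosome II, 5544164 to 5544273, minus strand), which faces sls-2.2 on the other strand, had a pooled signal of 106 at rank 317 at -33 bp. Its replicate signals were 57.0 at -39 bp and 48.0 at -43 bp, the closest pair of summits upstream of a gene in both replicates. sls-2.9 (chromosome I, 13297877 to 13297985, plus strand), with the 21 nt leader, had 97.1 at rank 429 at -93 bp. Replicate 1 placed 67.7 at -21 bp, at rank 235, and replicate 2 placed 38.4 at -97 bp, at rank 1998. Both its signal and its summit position differed between the replicates. The weakest thresholded peak of the series had a pooled signal of 112 at rank 267, and the strongest candidate outside had 112 at rank 268. Among the 10 genes, sls-2.2 was the last inside and sls-2.3 the first outside.

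The genes sls-2.5 and sls-2.10 had weak candidates in replicate 1 only. sls-2.5 (chromosome III, 7140447 to 7140553, minus strand) had 49.8 at rank 14771 at +35 bp, inside the gene, and 31.6 at the same base in replicate 1. sls-2.10 (chromosome IV, 9130721 to 9130829, minus strand) had 55.6 at rank 9355 at +146 bp, and 41.5 at +153 bp in replicate 1. The pooled signal of sls-2.5 was close to the median of all candidates, 49.6, and neither gene had a candidate upstream of its start.

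The genes sls-2.6 (chromosome I, 9055149 to 9055262, minus strand) and sls-2.7 (chromosome I, 9057890 to 9057999, minus strand) had no candidate within 200 bp in any of the 4 lists. The nearest pooled summit lay 543 bp from sls-2.6, with 40.8 at rank 27616, and 267 bp from sls-2.7, with 45.1 at rank 20730. Absence from a list of candidates does not show that the signal was 0.

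**Figure D2:**
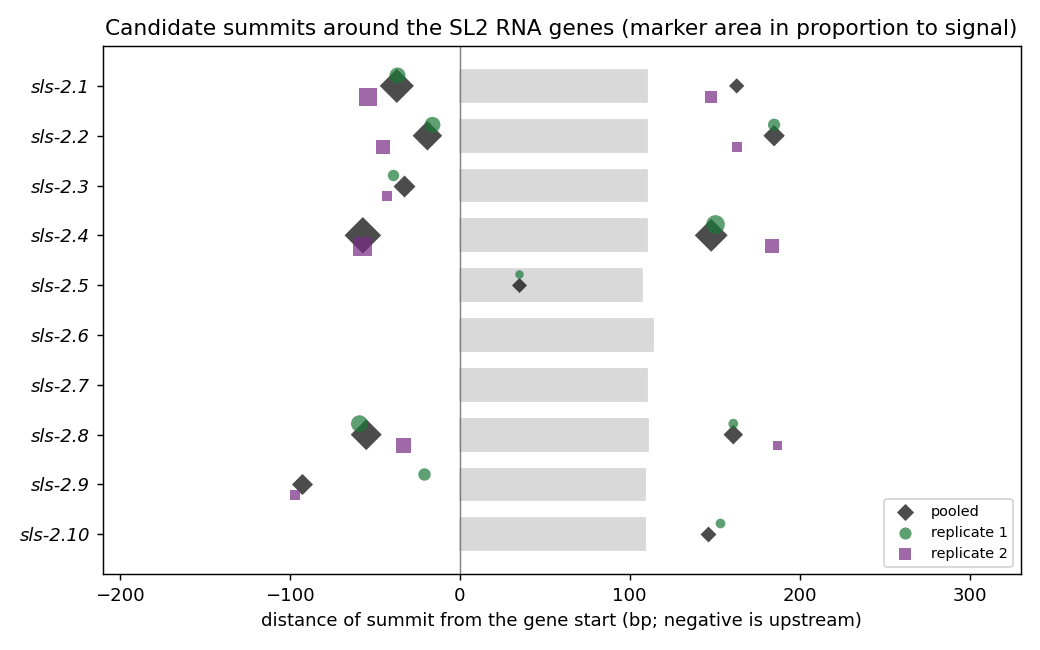
Position of every candidate summit around each SL2 RNA gene (distance from the gene start in bp, negative is upstream; grey bars are the genes) in the pooled list (diamonds), replicate 1 (circles) and replicate 2 (squares), with marker area in proportion to signal. The strongest pooled summits of 6 genes lie between -93 and -19 bp, and weaker ones cluster past the gene ends.

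Over the 8 genes with a pooled candidate, the strongest signal ran from 49.8 to 294 with a median of 149. The distance of its summit from the start ran from -93 to +146 bp with a median of -35 bp, and 6 of the 8 lay within 100 bp upstream. In the list of replicate 1 alone this median was -18.5 bp over 8 genes, with the strongest summit of sls-2.4 at +150 bp. Those 8 include sls-2.5 at +35 bp and sls-2.10 at +153 bp, which had no candidate in replicate 2. In the list of replicate 2 alone the median was -49.5 bp over 6 genes, so the 2 medians cover different genes. The shared positions between -70 and -43 also lie within 100 bp upstream. The pooled summits of sls-2.4 at -57 bp and sls-2.8 at -55 bp fell among them. Those of sls-2.1 at -37 bp, sls-2.2 at -19 bp, sls-2.3 at -33 bp and sls-2.9 at -93 bp did not. In replicate 1 sls-2.4 had no upstream candidate, and in replicate 2 the upstream summit of sls-2.8 lay at -33 bp. A full set of shared positions did not go with one level of signal. sls-2.5 matched at all 10 positions with a rank of 14771, while sls-2.2 matched at 9 with a rank of 92. The letters GC made up 37.5% to 57.5% of the 80 bp before the 10 genes.

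**Figure D3:**
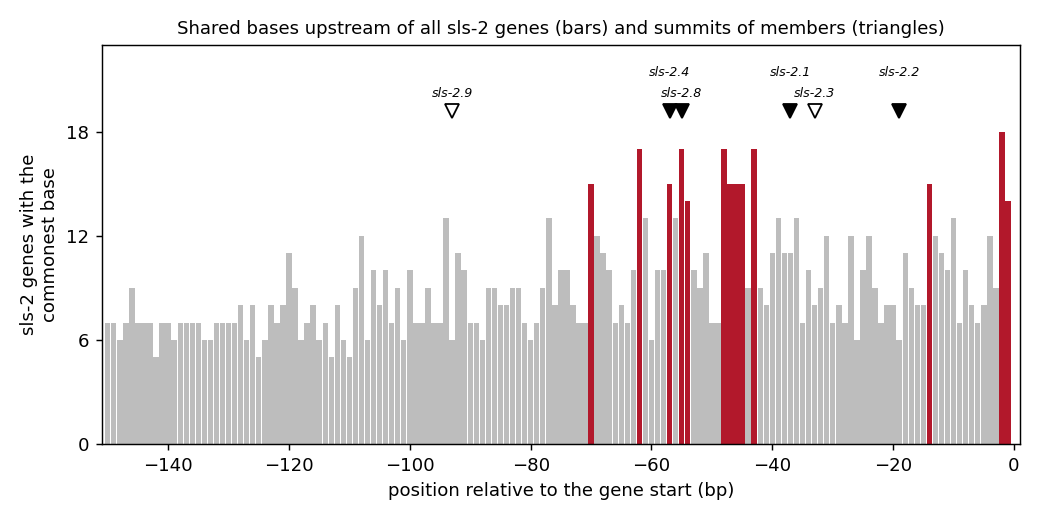
Number of the 18 sls-2 genes with the commonest base at each position before the gene start (bp); red bars mark positions shared by at least 14 genes, and triangles mark the strongest pooled summit of the 6 genes with one there (filled where thresholded). The red bars gather between -70 and -43. The summits of sls-2.4 and sls-2.8 stand among them, and those of sls-2.1, sls-2.2, sls-2.3 and sls-2.9 lie outside.

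Replicate signals could be set side by side at 6 genes. The log2 ratio of replicate 1 to replicate 2 was 0.82 at sls-2.9, 0.43 at sls-2.8, 0.40 at sls-2.2, 0.25 at sls-2.3, -0.08 at sls-2.4 and -0.37 at sls-2.1. The median was 0.32, and over 264 thresholded peaks of the series it was 0.02 with an SD of 0.52. The measures differ, since the series used the strongest candidate overlapping each peak and the genes the strongest summit within 200 bp. Also, sls-2.3 and sls-2.9 had no thresholded summit. The value of sls-2.4 sets summits on opposite sides of the gene against each other. With its downstream summits, 153 in replicate 1 at +150 bp and 83.4 in replicate 2 at +184 bp, the ratio was 0.88, and the median of the 6 genes was 0.42. This comparison of summits on the same side was chosen after seeing the data. At sls-2.9 and, on the same side, at sls-2.4 the ratio lay more than 1 SD from the median of the series. After each signal was divided by the median of its replicate's list, the median ratio was 0.03 over the 6 genes and -0.27 over the thresholded peaks, so the distance between them was as before. With 2 replicates on unknown depth, no error can be put on a single gene's signal.

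**Figure D4:**
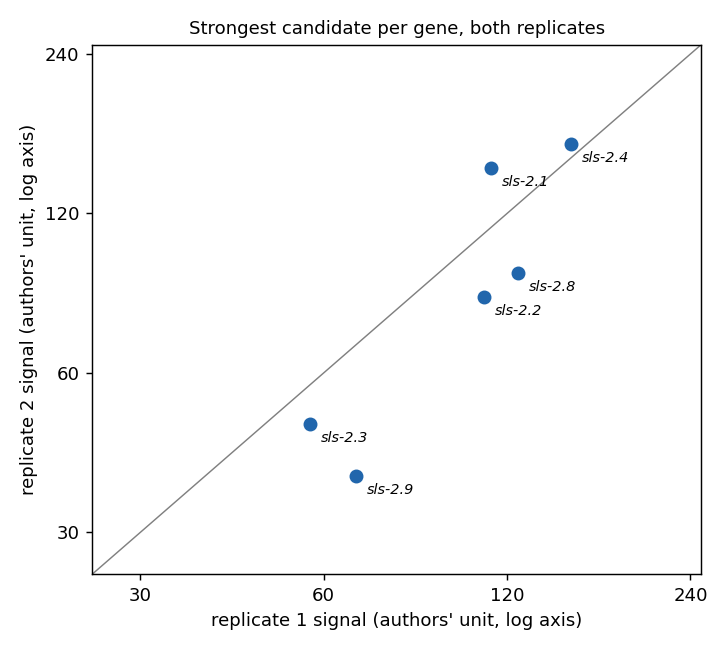
Signal of the strongest candidate within 200 bp in replicate 1 against replicate 2 (authors' unit, log axes) for the 6 SL2 RNA genes with a candidate in both; the line marks equal signals. sls-2.1 and sls-2.4 lie above the line, and sls-2.2, sls-2.3, sls-2.8 and sls-2.9 below it, with log2 ratios from -0.37 to 0.82; the summits behind the point of sls-2.4 lie on opposite sides of the gene.

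The other 8 sls-2 genes had no thresholded summit and none of the 1000 strongest pooled candidates. Of the 10, 6 had one of those 1000, against 2.09% of all nuclear genes and 8.08% of the 99 other snRNA genes. The 10 were chosen from these lists, so nothing is read from the difference. A pooled candidate lay at 5 of the 8, with signals of 46.4 to 83.1 and a median of 68.3. Their summits had a median distance of +171 bp, and 1 of the 5 was within 100 bp upstream. The highest was sls-2.15, with 83.1 at rank 1005 at +176 bp, and the upstream one was sls-2.17, with 68.3 at rank 3272 at -35 bp. The candidate of sls-2.15 had rank 14072 in replicate 1 and 339 in replicate 2. That of sls-2.17 was found in replicate 2 and not in replicate 1. sls-2.11, which shares its leader with sls-2.10, had no candidate. These 3 genes were picked out after their values were seen.

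The sls-1 genes, which encode the SL1 leader, had a pooled candidate at 0 of 12. They are nearly identical repeats. The share of 36-base words within 200 bp of the gene that occur once in the genome had a median of 0% (0% to 22.5%) for the sls-1 genes and 90.7% (82.6% to 100%) for the 10 SL2 genes. How reads from repeats were placed is not given in the sources used here, and the part of repeats in the 0 of 12 was not tested. Among the 10, the 80 bp upstream were made of single-copy words throughout, except at sls-2.10, where the share was 53.3%. Within the gene bodies the share was lower, with a median of 83.3% (41.3% to 100%). It was 41.3% at sls-2.1 and sls-2.3, 53.3% at sls-2.2 and 78.7% at sls-2.4. What these repeated stretches do to the signals and summits was not tested.

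Of the 99 other snRNA genes, 24 had a pooled candidate, with signals of 40.4 to 266 and a median of 61.7. Their median summit distance was +120.5 bp, and 5 of the 24 lay within 100 bp upstream. The 3 genes with the strongest thresholded summits were sup-6 (266, the stronger of 2, rank 44, +202 bp), the gene annotated R07E5.16 (140, rank 164, -29 bp) and that annotated T11F9.15 (125, rank 207, +164 bp). The last 2 carry the identifiers WBGene00014543 and WBGene00014291, since Ensembl uses such names for more than 1 gene.

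**Figure D5:**
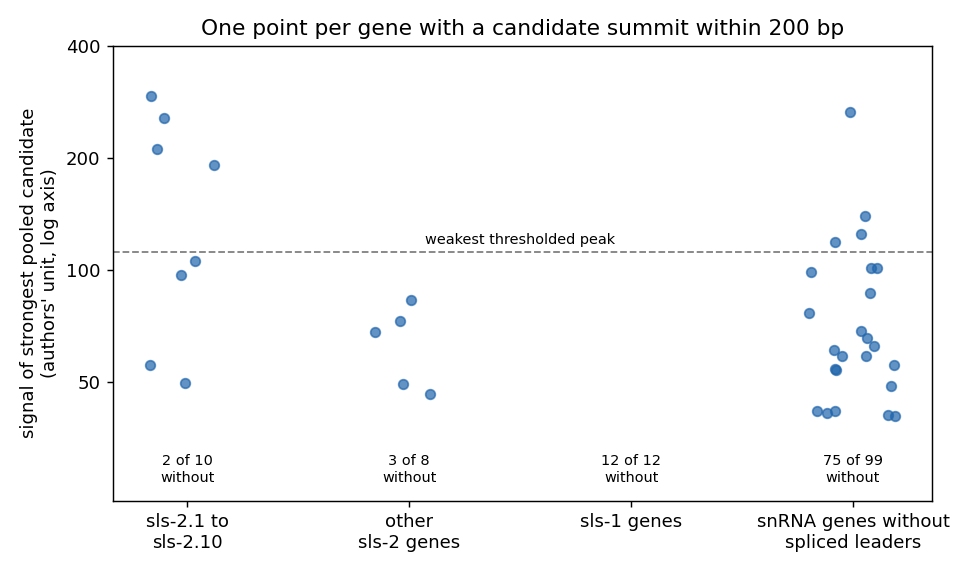
Signal of the strongest pooled candidate within 200 bp (authors' unit, log axis), 1 point per gene that has one, for sls-2.1 to sls-2.10, the 8 other sls-2 genes, the 12 sls-1 genes and the 99 other snRNA genes; points are spread sideways for legibility. The 4 highest points of the 10 SL2 genes lie at 192 to 294, and the 8 other sls-2 genes reach 83.1.

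Neighbouring genes share some of the summits. The nearest protein-coding start was 676 bp from sls-2.1 (ZK1248.17), 1266 bp from sls-2.2 and 591 bp from sls-2.3 (both ins-13, an insulin-like gene), 617 bp from sls-2.4 (egg-5, which acts at egg activation) and 195 bp from sls-2.8 (Y75B8A.23). It was 2275 bp from sls-2.5 (B0280.11), 195 bp from sls-2.6 (hgo-1, which encodes homogentisate oxidase), 145 bp from sls-2.7 (W06D4.3), 2839 bp from sls-2.9 (sepa-1, an autophagy adaptor gene) and 3583 bp from sls-2.10 (nrfl-1). sls-2.5 lies in an intron of glr-2, a glutamate receptor gene, and sls-2.6 in an intron of hgo-1, each on the same strand as its host, and the other 8 genes are outside protein-coding genes.

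A summit could also count for a protein-coding promoter, taken as 1000 bp before to 200 bp after a transcript start. The strongest summit of sls-2.8 lay 250 bp upstream of Y75B8A.23 and 246 bp upstream of tim-1, a homologue of Timeless, the strongest of sls-2.4 lay 560 bp upstream of egg-5, and that of sls-2.1 949 bp upstream of H41C03.3. For these 3 genes the SL2 gene and the coding gene cannot be told apart as the place of the peak. No coding promoter held the summits of sls-2.2, sls-2.3, sls-2.5, sls-2.9 or sls-2.10. A coding start lay within 200 bp of sls-2.8, which had a thresholded summit, and of sls-2.6 and sls-2.7, which had no candidate.

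A set of 5 words of 6 bases, picked earlier from these same data, was looked for within 50 bp of the strongest pooled summit of the 8 genes, on both strands. The word ACGCAG lay at 2 of the 8, sls-2.3 and sls-2.9, against 18.0% of the 267 thresholded summits. The word GACGCA, which overlaps it, lay at the same 2 genes, against 19.5%. The word CGCGCA lay at 0 of 8, against 16.9%. Likewise the word GCGCAC lay at 0 of 8, against 13.9%, and a last word, GCGTCA, at 0 of 8, against 14.6%. The 4 SL2 genes with a thresholded summit held none of the 5 words there. Because the words were picked from these same data, their shares at the thresholded summits are no independent background. With 8 summits, nothing is read from these counts.

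The proteins that make and use SL2 RNA were counted from a list of 62 genes, of which 56 are annotated under the names used. A thresholded summit lay in the promoter window of 2 of the 56, against 1.38% of all protein-coding genes, and a pooled candidate in that of 29, against 38.1% of all protein-coding genes. One was ints-4, a subunit of Integrator, the complex that processes snRNA 3′ ends, with a pooled signal of 322 at rank 28 and replicate signals of 174 and 150. The other was snr-4, an Sm protein gene, with 125 at rank 207 and replicate signals of 63.9 and 69.0. The summit lay at +39 bp from the nearest start of ints-4 and at -559 bp from that of snr-4. The snr-4 summit is the one also counted at the snRNA gene T11F9.15. By role, a thresholded summit lay at 1 of 11 annotated Integrator genes and 1 of 7 Sm protein genes. It lay at 0 of 8 genes for SNAPc and TBP and 0 of 13 for 3′ end formation including CstF. For the cap and its readers it lay at 0 of 6, and for SL particle proteins and suppressor genes at 0 of 5. For the 3′ splice site it was 0 of 3, for the SMN complex 0 of 2, and xrn-2, an exonuclease gene, had none.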

How the data were processed

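ChIP-seq libraries of 2 biological replicates of C34B4.2 fused to GFP and FLAG, from whole L1 larvae, were used through the authors' ce11 peak lists. Each list gives the deposited signal per peak, the deposited −log10 q, and the other column used, the summit position deposited as a number of bases past the peak start. Read depth, the IDR threshold, the signal scale, the peak caller and the aligner were not stated in the sources at hand, so a single signal has no stated precision. The ce10 lists were not used here.

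Chromosome names and lengths matched WBcel235, with 0 peaks beyond an end. Gene models are those of Ensembl release 115. Summits were placed as start plus offset plus 1, and distances run along the gene's strand from its annotated start. Summits within 200 bp of a gene, promoter windows of 1000 bp upstream and 200 bp downstream, upstream bases and 36-base words were computed with Python 3.11.15, numpy 2.4.6, pandas 2.3.3 and Biopython 1.88. The overlap steps were tested on simulated data with planted summits. Figures were drawn with matplotlib 3.10.9.

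Both replicates form 1 group, so there was no comparison between groups and no test. Members, lists and rules were chosen with earlier results of these data known. Named genes were the 10 SL2 genes, any other sls-2 gene with a thresholded or top 1000 candidate (0 of 8 had one), the pathway genes with a thresholded summit, the 3 other snRNA genes with the strongest thresholded summits, and the nearest protein-coding starts. Beyond that rule, sls-2.11, sls-2.15, sls-2.17 and the coding genes whose promoters hold an SL2 summit were named after their values were seen. Alternatives changed the window, the measure of distance, the threshold, the list, the word length and the promoter window.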

Additional observations from a re-analysis of the deposited data

How the results depend on the processing

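Of 43 alternative values, 36 stayed within 1.5 times of the count or within the spread of the value reported. For the median signal and distance, this spread was the SD of the medians of the 2 single-replicate lists. Those medians were also among the alternatives. For the log2 ratio the spread was the SD over the thresholded peaks. The 36 are therefore a count by this rule and no measure of stability. The 4 SL2 genes with a thresholded summit were the same genes with windows of 100 and 500 bp and with the upper 133 peaks. The 534 strongest pooled candidates added sls-2.3 and sls-2.9, giving 6. To leave out 1 replicate, the other replicate's own list was used, with no new IDR step. For the thresholded counts, pathway genes included, it was cut at its 267 strongest candidates. That gave 4 to 5 genes, the added one being sls-2.9 in replicate 1 alone. The full list of a single replicate gave 6 to 8 genes with a candidate, and a median summit distance of -49.5 to -18.5 bp against -35 bp. Over all 18 sls-2 genes the thresholded share was 22.2%, against 40.0% over the 10. The median signal of 149 became 106 with a window of 500 bp, where 1 more gene, 9 in all, had a candidate. It was 88.0 to 88.9 in a single replicate's list, whose scale is lower. The count of 2 pathway genes became 1 with a promoter window of 500 bp upstream and 100 bp downstream, 1 in the upper part of the list, and 1 to 2 when a replicate was left out. No paired analysis was possible because both replicates belong to 1 group. Unknown read depth limits every signal.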
